A study of Mus musculus with 12 samples.

Results

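The genes of MHC class I antigen presentation were followed in a survey of RNA polymerase II (Pol II) binding in the mouse duodenal epithelium. The 9 genes were chosen by name, as B2m, H2-K1, H2-D1, H2-Q1, H2-Q2, Tap1, Tap2, Tapbp and Nlrc5. Of these, 8 are among the 6429 genes of both comparison tables that the authors deposited, and Nlrc5 has no row in either, so its change was not analysed here. All 9 have counting windows in the authors' window files, for 14 of 44308 transcripts. The assay was ChIP-seq, in which DNA bound by a protein is pulled down with an antibody and sequenced. Each of 3 groups had 3 Pol II libraries, namely villus and crypt of wild-type (WT) mice and villus of mice labelled as an Hnf4 alpha and gamma double knockout (DKO). Tissue came from adult mice and was labelled duodenal epithelium. DKO mice had tamoxifen injected into the abdomen at 50 mg/kg/day for 2 days and were killed 1 day after the last dose, and WT mice, called littermate controls in the design text, received ethanol in corn oil without tamoxifen. Epithelium was released with 3 mM EDTA for 35 min from WT and 25 min from DKO tissue, and a 70 µm filter held back villi and let crypts through. Genotype, tamoxifen and EDTA time therefore cannot be told apart between WT and DKO villus. The driver of the recombinase, the floxed or deleted alleles, the mouse strain and its H2 haplotype, and whether animals were pooled are not given in the sources used here.

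MHC class I molecules show fragments of a cell's own proteins to CD8+ T cells. Proteasomes, including the interferon-inducible immunoproteasome, cut proteins into peptides, the TAP1-TAP2 transporter carries these into the endoplasmic reticulum, and tapasin (encoded by Tapbp) holds an empty class I molecule beside the transporter. The class I molecule is a polymorphic heavy chain, such as those encoded by H2-K1 and H2-D1, bound to the invariant light chain beta-2 microglobulin (B2m), and NLRC5 is a transactivator of these genes. In the intestine the epithelium meets a dense population of intraepithelial lymphocytes, many of which carry CD8.

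All changes come from the authors' deposited tables in the DESeq2 results format, whose mean Pol II signal averages size-factor-normalised counts over the libraries. It ran from 13.1 to 6634 over all genes with a median of 144, and from 87.5 at Tap2 to 284 at H2-K1 among the class I genes. Values per library were not used, because the columns of the window counts carry no names, so no spread between libraries can be shown and the depth of each library was not analysed here. Errors after ± are standard errors (SE) on the log2 scale, and "called" means an adjusted p under 0.05. Nothing in the sources says that the 3 libraries of a group came from separate animals. Group means were rebuilt from the mean signal and both fold changes, taking groups of equal size and unshrunken fold changes. They are compared within a gene and not between genes, since the window that was counted is not stated. Signs follow the tables' names. Among the targeted genes, Pol II signal in the authors' deposited table was higher in the villi labelled DKO. On the log2 scale, WT over DKO villus was -0.54 ± 0.14 at Hnf4a (adjusted p 4.84e-04) and -1.45 ± 0.22 at Hnf4g (adjusted p 7.81e-10) in that deposited table of the authors. Every direction between the genotypes below therefore rests on the libraries labelled DKO and on the names of the tables.

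Pol II signal at the class I heavy chains and at B2m was higher in WT villus than in WT crypt. Of the 8 genes, 6 were called higher in villus (B2m, H2-K1, H2-D1, H2-Q1, H2-Q2 and Tapbp), Tap1 and Tap2 did not pass, and none was called higher in crypt. Over all 6429 genes 37.4% were called, 18.6% with more signal in villus and 18.8% with more in crypt. The median log2 fold change was 1.18 over the 8 genes, with a range of 0.16 to 1.76, beside -0.04 over all genes. Villi labelled DKO had a lower signal than WT villi at 6 of the 8 genes (B2m, H2-K1, H2-D1, H2-Q1, H2-Q2 and Tapbp), and none was called higher there. Of all genes 51.9% were called in this comparison, 22.4% with more signal in WT and 29.5% with more in DKO villus. The median of WT over DKO villus was 1.18, with a range of -0.11 to 3.08, beside -0.08 over all genes. Both comparisons use the WT villus libraries. In sum over the 8 genes, the rebuilt signal was 1128 in crypt, 2609 in WT villus and 989 in DKO villus. At H2-D1, Tap2 and Tapbp, however, the rebuilt mean was higher in DKO villus than in crypt.

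**Figure D1:**
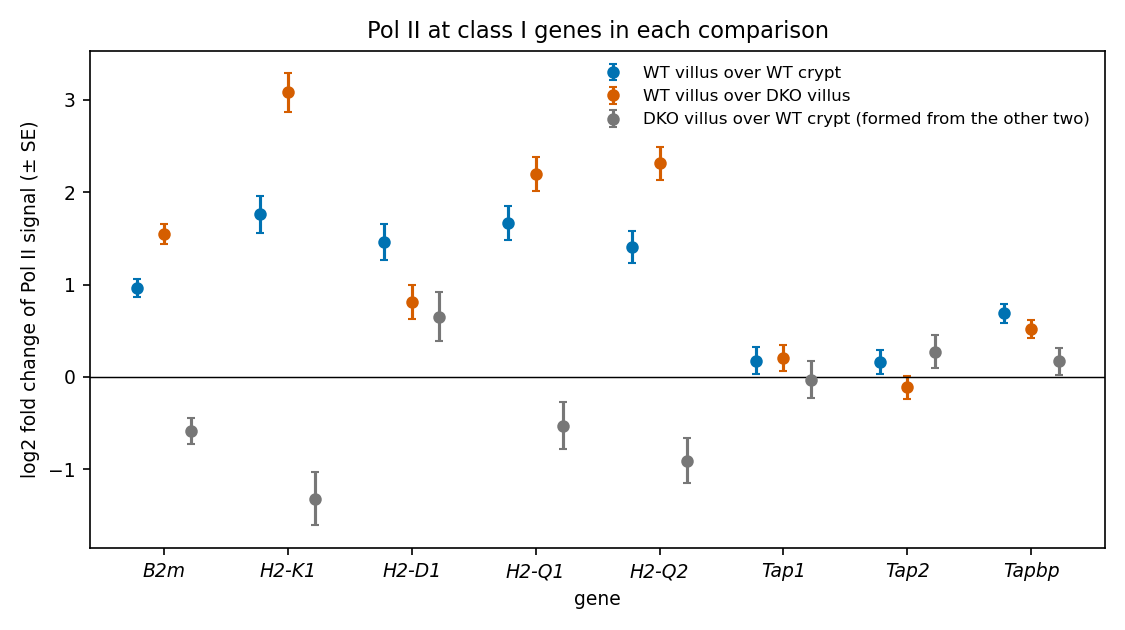
Log2 fold change of Pol II signal (vertical axis, points with ± 1 SE) at the 8 class I genes in the 2 deposited comparisons and in DKO villus over WT crypt, which was formed from them. H2-K1 has the highest point for WT over DKO villus, at 3.08, H2-D1 lies at 0.81, and the Tap1 and Tap2 points of all comparisons lie between -0.11 and 0.27.

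The classical heavy chain gene H2-K1 had a rebuilt group mean of 178 in WT crypt, 604 in WT villus and 71.3 in DKO villus. WT villus was thus the highest group and DKO villus the lowest. The authors' deposited table gave H2-K1 a log2 fold change of villus over crypt of 1.76 ± 0.20 (adjusted p 9.02e-17), which is 3.39-fold and the 29th highest of 6429 genes. Between the genotypes the authors' deposited table listed 3.08 ± 0.21 (adjusted p 5.34e-48), an 8.46-fold higher signal in WT and the 18th highest value of all genes.

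H2-D1, which encodes the other classical heavy chain listed here, had rebuilt means of 156 in crypt, 431 in WT villus and 246 in DKO villus. By rebuilt mean crypt and not DKO villus was the lowest group here, although the step between them did not pass in the main test given below. Villus over crypt stood at 1.46 ± 0.19 in the authors' deposited table (adjusted p 7.75e-13), 2.76-fold. WT over DKO villus was 0.81 ± 0.19 (adjusted p 5.81e-05) in the authors' deposited table, 1.75-fold, and 574th of all genes. This call of H2-D1 was lost when tested against changes up to 0.5 (adjusted p 0.648). The heavy chains H2-K1 and H2-D1 differed by 0.30 in their log2 fold change of villus over crypt, with a 95% interval of -0.24 to 0.84, and by 2.27 in that of WT over DKO villus, with an interval of 1.73 to 2.82. These intervals take the errors of both genes as independent, although the genes were read in the same libraries. The 95% interval of the gap between these heavy chains thus lay above 0 between the genotypes and included 0 along the crypt-villus axis.

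The heavy chain genes H2-Q1 and H2-Q2 lie in the Q region of the H2 complex, which holds nonclassical class I genes. H2-Q1 had rebuilt means of 120 in crypt, 382 in WT villus and 83.2 in DKO villus. H2-Q2 had 121 in crypt, 320 in WT villus and 64.4 in DKO villus. By rebuilt mean both genes were highest in WT villus and lowest in DKO villus. The step between DKO villus and crypt did not pass at H2-Q1 in the main test given below. In the authors' deposited tables H2-Q1 changed by 1.67 ± 0.18 for villus over crypt (adjusted p 1.39e-18) and by 2.197 ± 0.18 for WT over DKO villus (adjusted p 5.68e-32). H2-Q2 changed by 1.41 ± 0.17 (adjusted p 9.58e-15) and by 2.32 ± 0.18 (adjusted p 7.07e-37) in the authors' deposited tables. The 95% interval of H2-Q1 minus H2-Q2 included 0 in both comparisons, at 0.26 with an interval of -0.23 to 0.75 along the axis and at -0.12 with an interval of -0.62 to 0.38 between the genotypes. H2-D1 lay below both between the genotypes, with H2-D1 minus H2-Q1 at -1.39 (interval -1.90 to -0.88) and H2-D1 minus H2-Q2 at -1.505 (interval from -2.01 upward, entirely below 0). The H2 heavy chains are close paralogs, and the window files required a mapping quality of at least 30, so how read pairs were split among these genes is uncertain.

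B2m, the light chain of all these molecules, had rebuilt means of 196 in crypt, 382 in WT villus and 131 in DKO villus. Its order of groups was that of H2-K1, with smaller steps. The log2 fold change in the authors' deposited table was 0.96 ± 0.10 for villus over crypt (adjusted p 2.17e-19), 1.95-fold, and 1.55 ± 0.10 for WT over DKO villus (adjusted p 1.86e-48), 2.92-fold. These SEs were among the smallest of the 8 genes. Between the genotypes, B2m stood 1.53 below H2-K1 (interval of B2m minus H2-K1 from -1.99 to -1.08) and 0.74 above H2-D1 (interval 0.32 to 1.15).

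Fold changes at the genes of the peptide loading machinery were smaller in value than at the heavy chains. For Tapbp the 95% interval of the gap included 0 against B2m along the axis, with B2m minus Tapbp at 0.27 (interval -0.01 to 0.56), and against H2-D1 between the genotypes, with H2-D1 minus Tapbp at 0.29 (interval -0.12 to 0.70). Tapbp, encoding tapasin, had rebuilt means of 186 in crypt, 300 in WT villus and 209 in DKO villus. Its changes of 0.69 ± 0.10 (adjusted p 7.11e-10) and 0.52 ± 0.10 (adjusted p 1.16e-06) in the authors' deposited tables passed the test, and correspond to 1.61-fold and 1.43-fold. Tapbp no longer passed in either comparison when tested against a change of 0.5. Tap1, encoding one chain of the transporter, had rebuilt means of 91.3 in crypt, 103 in WT villus and 89.5 in DKO villus. The values of Tap1 in the authors' deposited tables were 0.17 ± 0.15 (adjusted p 0.371) and 0.20 ± 0.14 (adjusted p 0.227). Tap2, encoding the partner chain, had 79.0 in crypt, 88.2 in WT villus and 95.4 in DKO villus. The authors' deposited tables listed 0.16 ± 0.13 (adjusted p 0.358) and -0.11 ± 0.13 (adjusted p 0.461) for Tap2. The transporter genes were thus not told apart in either table, with 95% intervals that lay between -0.36 and 0.48 on the log2 scale.

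**Figure D2:**
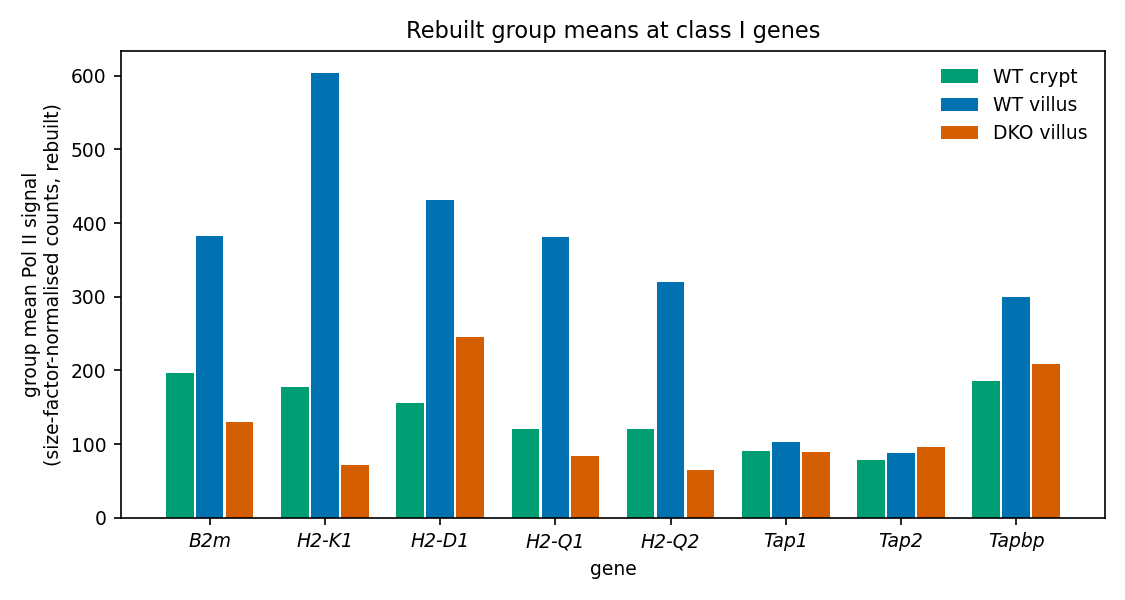
Rebuilt group means of Pol II signal (vertical axis, size-factor-normalised counts) in WT crypt, WT villus and DKO villus at the 8 class I genes, to be compared within a gene; the bars carry no error because values per library were not used. WT villus is the highest bar at 7 genes and DKO villus at Tap2, and at H2-D1 the DKO bar of 246 stands above the crypt bar of 156.

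The difference between DKO villus and WT crypt was formed from both deposited fold changes, with the largest SE that this difference can have. By a two-sided normal test with Benjamini-Hochberg adjustment over the 6429 genes, 3 of the 8 class I genes were lower in DKO villus than in crypt, where 13.6% of all genes were called, 7.19% lower and 6.41% higher. H2-K1 stood at -1.32 ± 0.29 (adjusted p 1.24e-04), H2-Q2 at -0.91 ± 0.25 (adjusted p 0.00343) and B2m at -0.59 ± 0.14 (adjusted p 9.84e-04). Tested against changes up to 0.5, none of these 3 calls held, with adjusted p of 0.234 at H2-K1 and 1 at H2-Q2 and B2m. H2-Q1, at -0.53 ± 0.26 (adjusted p 0.170), and H2-D1, at 0.65 ± 0.27 (adjusted p 0.0847), did not pass. No gene of the 8 was called higher in DKO villus, and at an unadjusted p under 0.05 the single such gene was H2-D1. With an SE that takes part of the variance as that of the shared WT villus libraries, both passed, H2-D1 higher in DKO villus with an adjusted p of 0.00319 and H2-Q1 lower with an adjusted p of 0.0149. That SE also raised the share of all genes called from 13.6% to 29.9%. For H2-K1 minus H2-D1 the difference was -1.97, with an interval of -2.74 to -1.20. Tap1 (-0.03 ± 0.20), Tap2 (0.27 ± 0.18) and Tapbp (0.17 ± 0.14) did not pass under either SE.

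The promoters of genes whose signals differed most are given here with that of Tap1, which did not pass in either table. RefSeq sequences on GRCm38.p6 were matched by symbol for 6 of the 9 genes, not for H2-Q1, Tap2 and Nlrc5. Each runs 5′ to 3′ on the gene's strand, from 250 bases before to 50 bases after an annotated start, and H2-K1 has 2 annotated starts, of which the first listed is shown. Capitals mark every match, on either strand, to an interferon-stimulated response element (ISRE, GAAA, then 2 bases of any kind, then GAAA), a gamma-activated site (TTCNNNGAA), an NF-kB motif (GGGA, then 4 bases of any kind, then CC), the X2 or CRE core (TGACG), the Y box (ATTGG), an HNF4 motif (CAAAGTCCA) or its shorter form (CAAAGT). The X2 core and Y box are parts of the promoter module through which NLRC5 is known to act.
H2-K1, chr17:34000298-34000597, minus strand: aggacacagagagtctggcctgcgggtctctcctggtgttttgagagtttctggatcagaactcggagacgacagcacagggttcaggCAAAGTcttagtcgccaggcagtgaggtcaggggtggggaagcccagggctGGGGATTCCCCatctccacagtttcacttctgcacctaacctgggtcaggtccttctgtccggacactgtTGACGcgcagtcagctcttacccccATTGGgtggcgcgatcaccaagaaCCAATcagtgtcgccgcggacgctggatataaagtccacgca
H2-D1, chr17:35262844-35263143, plus strand: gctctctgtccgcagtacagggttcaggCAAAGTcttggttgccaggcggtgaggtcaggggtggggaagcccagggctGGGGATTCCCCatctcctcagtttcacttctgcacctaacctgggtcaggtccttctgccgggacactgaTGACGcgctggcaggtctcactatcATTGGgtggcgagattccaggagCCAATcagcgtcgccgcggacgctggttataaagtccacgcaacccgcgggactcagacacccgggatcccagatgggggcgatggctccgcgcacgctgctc
H2-Q2, chr17:35342057-35342356, plus strand: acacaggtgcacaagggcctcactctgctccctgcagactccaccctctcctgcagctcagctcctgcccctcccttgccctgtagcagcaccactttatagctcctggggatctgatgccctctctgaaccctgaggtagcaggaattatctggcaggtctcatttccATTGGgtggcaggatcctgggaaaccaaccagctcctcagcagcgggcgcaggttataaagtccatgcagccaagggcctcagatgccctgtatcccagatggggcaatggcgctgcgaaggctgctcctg
B2m, chr2:122147437-122147736, plus strand: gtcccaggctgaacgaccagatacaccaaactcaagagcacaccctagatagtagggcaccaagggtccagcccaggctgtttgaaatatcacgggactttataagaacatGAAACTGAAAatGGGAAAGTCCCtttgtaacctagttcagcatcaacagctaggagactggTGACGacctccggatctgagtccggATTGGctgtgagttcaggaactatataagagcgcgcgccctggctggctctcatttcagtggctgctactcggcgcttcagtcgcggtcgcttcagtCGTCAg
Tap1, chr17:34187306-34187605, plus strand: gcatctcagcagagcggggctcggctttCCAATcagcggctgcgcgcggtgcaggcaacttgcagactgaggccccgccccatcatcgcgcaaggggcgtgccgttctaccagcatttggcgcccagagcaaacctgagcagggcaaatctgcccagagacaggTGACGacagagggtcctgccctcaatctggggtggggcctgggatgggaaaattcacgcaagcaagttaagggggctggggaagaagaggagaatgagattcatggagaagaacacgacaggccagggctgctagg

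The H2-K1 and H2-D1 windows were near copies, shifted by their annotated starts. In a global alignment 214 of 239 aligned bases were identical (89.5%), against 187 of 281 (66.5%) for H2-D1 and H2-Q2 and 51.4% for H2-K1 and B2m. Both held, in the same order, the CAAAGT motif, overlapping NF-kB matches on both strands (GGGGATTCCCC), the X2 core and a Y box on each strand. Their log2 fold changes of WT over DKO villus differed by 2.27. The part of promoter sequence in this gap, and that of how read pairs were split between these paralogs, was not tested. B2m alone among the 6 promoters held a match to the ISRE pattern given above (GAAACTGAAA, first base at -139 from the start). Such a match was found in 3.44% of all 32851 promoter windows of this length. After their NF-kB matches, H2-K1 and H2-D1 both held the letters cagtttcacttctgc, which this pattern does not match on either strand. Looser forms of the ISRE were not searched, so a promoter without a match is not shown to lack the element. An NF-kB match was found at B2m, H2-K1 and H2-D1, and in 20.7% of all windows. The X2 core was found at B2m, H2-K1, H2-D1 and Tap1, and in 20.8% of all windows. H2-Q2 held a Y box and none of the other motifs. A Y box was found at all 6 genes, Tapbp included, and in 37.4% of all windows. CAAAGT was found at H2-K1, H2-D1 and Tapbp, and in 14.4% of all windows, while CAAAGTCCA, found in 0.475%, and the gamma-activated site, found in 8.30%, matched none of the 6. A match describes letters in this window and no binding was measured there.

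In the authors' mm9 coordinates 7 of the 8 genes lie in 1.43 Mb of chromosome 17, from Tapbp at 34056323 to H2-Q2 at 35483209. Within this interval H2-K1 occupies windows from 34132457 to 34137642, Tap1 from 34324401 to 34333670, Tap2 from 34341324 to 34352766, H2-D1 from 35399939 to 35403942 and H2-Q1 from 35457392 to 35461544. B2m lies on chromosome 2 from 121973323 to 121978318, and Nlrc5 on chromosome 8 from 96996563 to 97050672. The interval held 58 other genes of the tables. Of these, the authors' deposited table called 14 higher in villus and 7 higher in crypt, with a median of 0.11, and 16 higher in WT and 8 higher in DKO villus, with a median of 0.08. The shares called higher were 24.1% in villus and 27.6% in WT, beside 18.6% and 22.4% of all genes, and the shares called lower were 12.1% and 13.8%, beside 18.8% and 29.5%. By the formed difference 19.0% were lower in DKO villus than in crypt, beside 7.19% of all genes, and 5.17% were higher, beside 6.41%. Psmb9 and Psmb8, the genes beside Tap1, did not pass, whereas the next genes after Tap2 were called higher in villus and in WT in the authors' deposited tables. These were the MHC class II genes H2-Ab1 (0.87 ± 0.12 and 2.24 ± 0.15), H2-Aa (0.70 ± 0.12 and 1.85 ± 0.14) and H2-Eb1 (0.58 ± 0.13 and 0.99 ± 0.13), then Btnl2, Btnl1, Btnl4, Btnl5-ps and Btnl6, of which Btnl6 had 1.26 ± 0.09 for villus over crypt and 4.29 ± 0.14 for WT over DKO villus, in the authors' deposited tables. H2-DMa, another gene of the class II pathway, lies before Psmb9 and did not pass. It had 0.02 ± 0.08 (adjusted p 0.868) and -0.06 ± 0.08 (adjusted p 0.527) in the authors' deposited tables. H2-K2, the H2 gene beside H2-K1 that was looked up for its position, changed by 0.68 ± 0.19 (adjusted p 0.00194) and 1.79 ± 0.21 (adjusted p 3.63e-16) in the authors' deposited tables. Whether it encodes a heavy chain was not analysed here. Within 500 kb of B2m 8 other genes were tested, of which 4 had a called increase in villus and 6 had more signal in WT than in DKO villus in the authors' deposited tables. Both counts include Patl2, whose gene body window encloses the B2m windows. The shares of 50.0% and 75.0%, over so few genes, stand beside 18.6% and 22.4% of all genes. The highest of them was Slc28a2, a nucleoside transporter gene, at 1.53 ± 0.18 (adjusted p 1.40e-15) and 1.55 ± 0.18 (adjusted p 1.14e-16) in the authors' deposited tables.

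**Figure D3:**
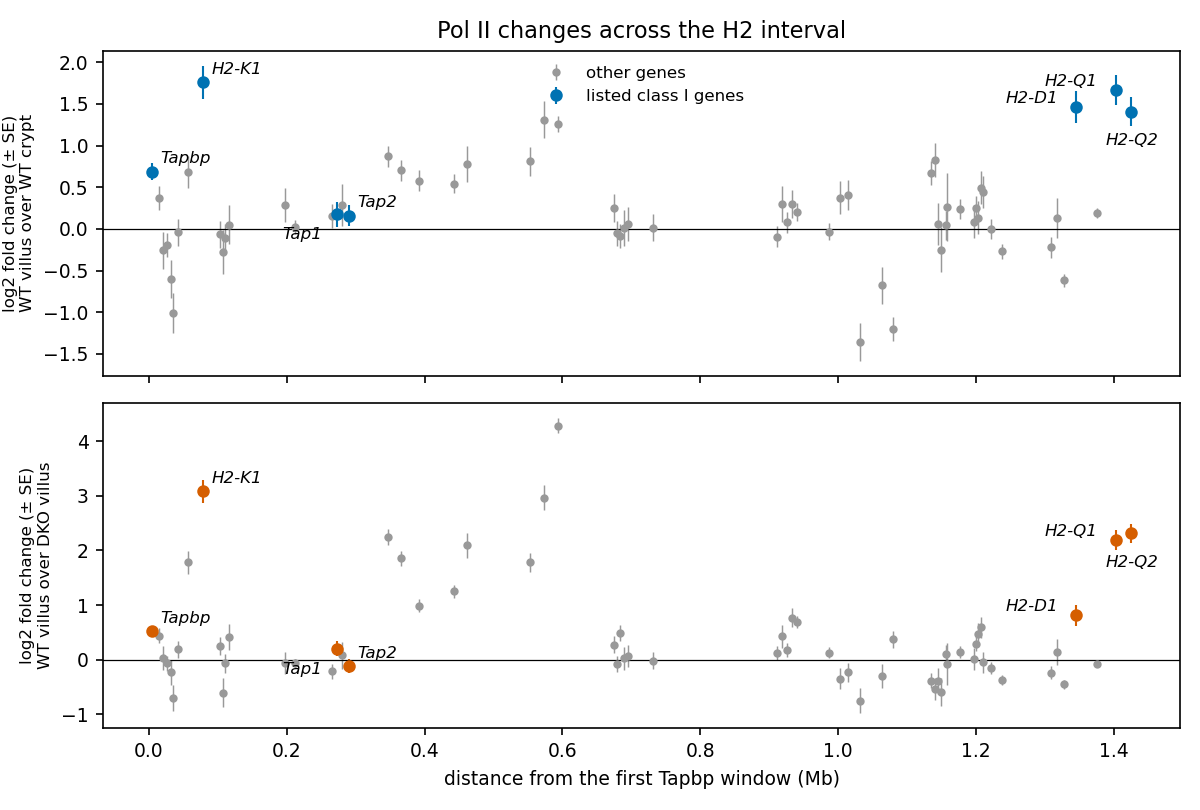
Log2 fold change (± SE) of each tested gene against its distance from the first Tapbp window, for WT villus over WT crypt (upper) and WT villus over DKO villus (lower), with class I genes coloured and 58 other genes in grey. H2-K1, H2-D1, H2-Q1 and H2-Q2 stand above the nearest grey points in both plots, with H2-D1 at 0.81 in the lower plot. Tap1 and Tap2 lie near 0.

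Several class I windows overlap those of other genes, and the counting recorded no strand and gave a read pair to every window it touched. The B2m windows lay wholly inside the gene body window of Patl2. The H2-Q1 windows lay wholly inside that of LOC547349, whose windows span 59.2 kb and also overlap the end of H2-D1. Both larger genes had smaller fold changes than the class I gene inside them. LOC547349 had 0.19 ± 0.06 (adjusted p 0.00699) and -0.08 ± 0.06 (adjusted p 0.273) in the authors' deposited tables, and Patl2 had 0.23 ± 0.08 (adjusted p 0.0154) and 0.70 ± 0.08 (adjusted p 6.94e-17) there. Like B2m, Patl2 thus passed with more signal in WT than in DKO villus, and how far the pairs share reads was not tested. H2-D1 also overlaps a transcript for which the gene table used here has no symbol, over 373 bases of the promoter window and 2758 bases of the gene body window. The genes H2-K1, H2-Q2, Tap2 and Tapbp had no window overlapping that of another gene.

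The windows themselves differed by strand. For all 19858 plus-strand transcripts with both windows the gene body window began 48 bases after the end of the promoter window. For all 21190 minus-strand transcripts it enclosed the whole promoter window and reached 250 bases beyond its upstream end. H2-K1 is the one class I gene of the 9 on the minus strand, and its gene body window ran from 350 bases before its start to 4835 bases after it. Psmb9, which encodes an immunoproteasome subunit and is transcribed away from Tap1, is also on the minus strand, and its gene body window overlapped the Tap1 promoter window over 225 bases. Whether the deposited comparisons rest on these windows is not stated, and the part of window shape in the values was not tested. Psmb9 itself did not pass in either of the authors' deposited tables, with 0.15 ± 0.14 (adjusted p 0.429) and -0.21 ± 0.14 (adjusted p 0.181).

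**Figure D4:**
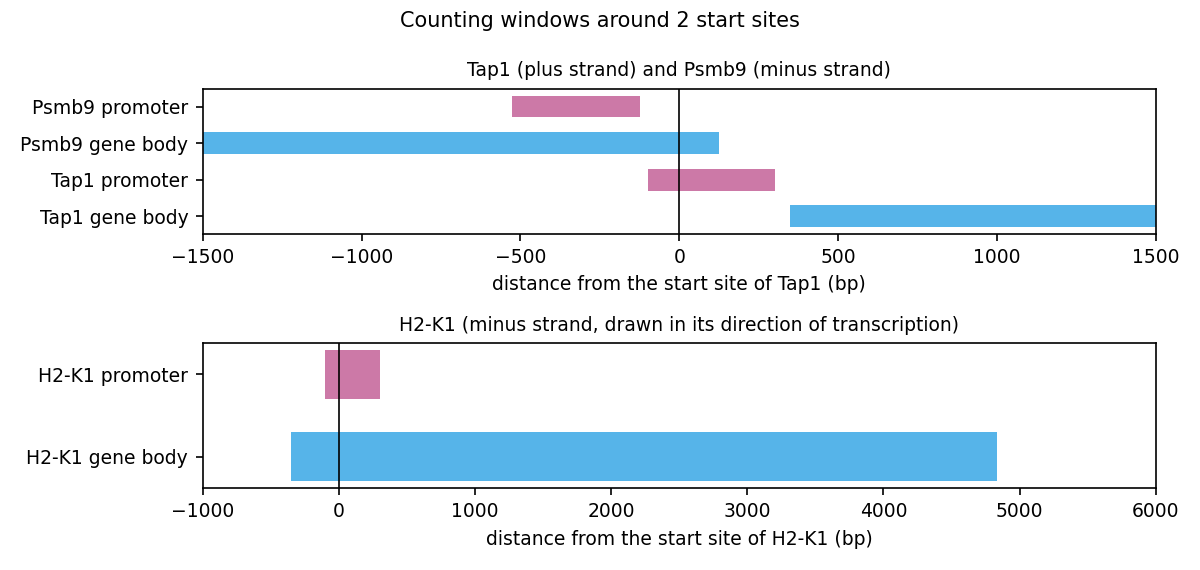
Promoter windows (pink) and gene body windows (blue) of the authors' window files as distance from the start site of Tap1 (upper, with Psmb9) and of H2-K1 (lower, in the direction of transcription). The Psmb9 gene body window runs to 124 bases past the Tap1 start site, and the H2-K1 gene body window encloses its promoter window.

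Other genes of the pathway were read from lists named by function. Of 25 other class I and class I-like heavy chain genes 5 were in the tables. Higher in villus than crypt were 4 of them, and 4 were higher in WT than DKO villus, where 18.6% and 22.4% of all genes were. Their medians were 0.84 and 1.37 in the authors' deposited tables, beside -0.04 and -0.08 over all genes. H2-Bl had the largest change of the list, at 1.76 ± 0.15 (adjusted p 2.21e-28) and 3.49 ± 0.18 (adjusted p 2.77e-82) in the authors' deposited tables. H2-T23, which encodes the Qa-1 molecule, stood at 0.84 ± 0.16 (adjusted p 9.40e-07) and 1.56 ± 0.16 (adjusted p 3.04e-20) in the authors' deposited tables. H2-T3, encoding the thymus leukaemia antigen that binds CD8 on gut lymphocytes, had 0.78 ± 0.18 (adjusted p 1.18e-04) and 1.37 ± 0.18 (adjusted p 1.23e-12) in the authors' deposited tables. H2-Q4 had 0.87 ± 0.16 (adjusted p 3.38e-07) and 0.57 ± 0.15 (adjusted p 3.18e-04), and H2-Q6 did not pass in either of the authors' deposited tables. H2-T23 and H2-Bl were also lower in DKO villus than in crypt by the formed difference, at -0.72 ± 0.23 (adjusted p 0.0142) and -1.73 ± 0.24 (adjusted p 3.27e-11).

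Of the tested genes of peptide supply, 6 of the immunoproteasome and PA28 and 8 of loading and trimming, 1 in each list was called higher in villus and 1 in each higher in WT, where 18.6% and 22.4% of all genes were. These low counts of genes called higher set neither list apart from all genes, and calls the other way are given below. All 6 immunoproteasome and PA28 proteasome activator genes were tested, with medians of 0.15 in both tables. Psmb10, an immunoproteasome subunit gene, was called higher in villus at 0.40 ± 0.13 (adjusted p 0.00607), and Psme3, which encodes the nuclear PA28 gamma, higher in crypt at -0.44 ± 0.17 (adjusted p 0.0248) in the authors' deposited table. Between the genotypes Psme2, encoding PA28 beta, was higher in WT at 0.42 ± 0.18 (adjusted p 0.0367) and Psme3 higher in DKO villus at -0.49 ± 0.16 (adjusted p 0.00625) in the authors' deposited table. Psmb8 and Psmb9 did not pass. Of 13 genes of loading chaperones and peptide trimming 8 were tested. Against crypt, 1 was called higher and 2 lower in villus, where 18.6% and 18.8% of all genes were. Against DKO villus, 1 was called higher and 5 lower in WT, where 22.4% and 29.5% of all genes were. The medians of these 8 genes were -0.12 and -0.55, beside -0.04 and -0.08 over all genes. The gene higher in WT was Lap3, a leucine aminopeptidase gene, at 1.51 ± 0.10 (adjusted p 1.45e-48) in the authors' deposited table. Those higher in DKO villus were Hspa5 (-0.76 ± 0.26), Pdia3 (-0.67 ± 0.18), Canx (-0.61 ± 0.17), Npepps (-0.58 ± 0.12) and Tapbpl (-0.52 ± 0.11), with adjusted p from 9.06e-06 to 0.00906 in the authors' deposited table. Hspa5, Pdia3 and Canx encode general folding factors of the endoplasmic reticulum, and Tapbpl encodes the tapasin-related peptide editor.

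Of 31 genes listed as regulators of class I genes 28 were tested, with medians of 0.13 and 0.09. The authors' deposited tables called 8 higher in villus and 5 higher in crypt, where the shares of all genes were 18.6% and 18.8%, then 10 higher in WT and 6 higher in DKO villus, where they were 22.4% and 29.5%. These counts are given as a description of the list and not as a departure from all genes. Higher in WT than DKO villus were Irf8 (1.04 ± 0.26), Ifngr2 (0.79 ± 0.11), Socs3 (0.68 ± 0.24), Irf1 (0.66 ± 0.17), Il10rb (0.65 ± 0.08), Irf7 (0.44 ± 0.14), Jak2 (0.42 ± 0.08), Ifnlr1 (0.40 ± 0.07), Ciita (0.34 ± 0.09) and Irf9 (0.28 ± 0.11) in the authors' deposited table. Ifngr2 encodes a chain of the interferon gamma receptor, Ifnlr1 and Il10rb encode both chains of the interferon lambda receptor, and IRF1 is a transcription factor of the interferon response. Those higher in DKO villus were Atf1 (-0.32 ± 0.09), Nfyb (-0.29 ± 0.10), Rela (-0.26 ± 0.11), Jak1 (-0.25 ± 0.08), Nfkb1 (-0.25 ± 0.06) and Tyk2 (-0.21 ± 0.07) in the authors' deposited table. Of 40 interferon-induced genes, a list that shares genes such as Psmb8, Psmb9 and Irf1 with the others, 19 were tested. In villus 3 of them were called higher than in crypt, and 2 in WT above DKO villus in the authors' deposited tables, Irf1 and Ddx58 (0.30 ± 0.10, adjusted p 0.00779), with medians of 0.17 and 0.08. Of all genes 18.6% and 22.4% were called in these directions. The interferon-induced list lay closer to the median of all genes than the class I genes did in both tables.

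**Figure D5:**
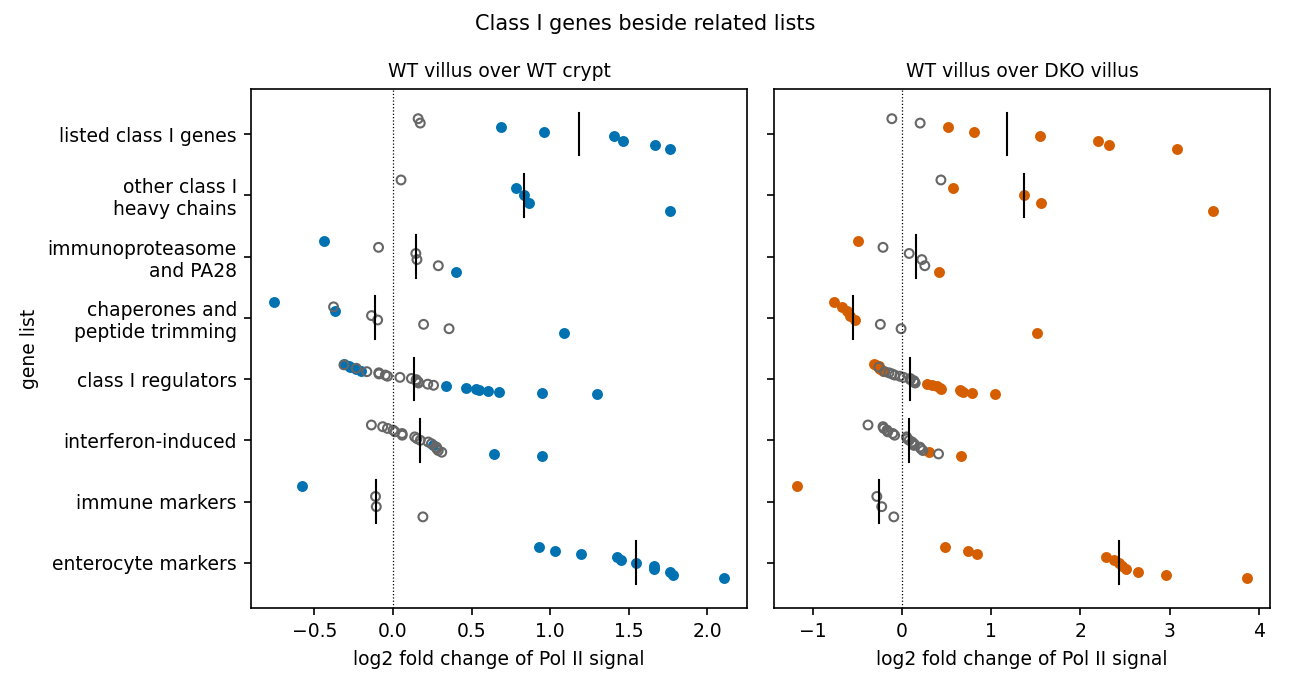
Log2 fold change of every tested gene (points, filled when called) and list median (vertical line) for the class I genes and 7 other lists, for WT villus over WT crypt (left) and WT villus over DKO villus (right). The class I genes, the other heavy chains and the enterocyte markers have their medians above 0.8 in both plots, and the remaining lists lie between -0.6 and 0.2.

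The markers of cell types were read in the same tables. All 11 tested of 12 enterocyte markers passed toward villus against crypt, and toward WT against DKO villus, in the authors' deposited tables. Of all genes 18.6% and 22.4% did so. The enterocyte markers had medians of 1.55 and 2.44, beside -0.04 and -0.08 over all genes. Their summed rebuilt signal was 6553 in crypt, 17670 in WT villus and 5080 in DKO villus. The sum over the class I genes had the same order of groups, and genes of high signal weigh most in both sums. By the formed difference 3 of the 11 markers were called lower in DKO villus than crypt, 1 higher and 7 not called. Of all genes 7.19% were lower and 6.41% higher. The marker called higher was Fabp1, at 0.94 ± 0.26. The part of enterocyte share in the class I values was not tested, and in such bulk libraries fewer cells of a type and less Pol II per cell cannot be told apart. Of 22 immune cell markers 4 were tested, and Ptprc, Cd3e and Cd8a were not among the genes of the tables. The summed signal of the 4 was 402 in crypt, 326 in WT villus and 551 in DKO villus. Cd68 carried most of these differences, with rebuilt means of 234, 157 and 354 in the same order, while Gzma, Gzmb and Coro1a were not called in either table, and Gzma stood at 69.6 in crypt, 79.4 in WT villus and 92.9 in DKO villus. Cd68, a macrophage and lysosome gene, was called higher in crypt (-0.58 ± 0.23, adjusted p 0.0328) and in DKO villus (-1.18 ± 0.23, adjusted p 1.22e-06) in the authors' deposited tables. Of 10 markers of crypt stem and dividing cells 2 were tested, Axin2 and Pcna. Both were called higher in crypt than villus, as were 18.8% of all genes. Pcna, a gene of dividing cells, was also called higher in DKO than WT villus, at -0.62 ± 0.20 (adjusted p 0.00568) in the authors' deposited table, and Axin2 was not, at -0.38 ± 0.17 (adjusted p 0.0531). Of all genes 29.5% were called higher in DKO villus. The part of dividing cells in the class I values was not tested. None of the 8 mesenchyme and 4 endothelium markers was in the tables, and their part was not analysed here.

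The genes nearest to the median of the class I genes in both log2 fold changes, by Euclidean distance over the 2 comparisons, were Dbp, Plpp5, Gpd1, Ubb and Sphk2, at distances of 0.069 to 0.14. Dbp, a clock-controlled transcription factor gene, had 1.25 ± 0.15 (adjusted p 6.35e-16) and 1.17 ± 0.14 (adjusted p 7.79e-15) in the authors' deposited tables. Gpd1, a glycerol phosphate dehydrogenase gene, had 1.16 ± 0.14 (adjusted p 4.08e-14) and 1.31 ± 0.14 (adjusted p 8.09e-19) in the authors' deposited tables. The median of 1.18 lay between the 4 heavy chains and the other genes for villus over crypt, whereas for WT over DKO villus the heavy chain H2-D1, at 0.81, lay below it.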

How the data were processed

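Pol II ChIP-seq libraries of WT villus, WT crypt and DKO villus, 3 each, were compared through 2 tables deposited by the authors, in the DESeq2 results format per the file headers. For each gene the authors deposited a mean signal, a log2 fold change with its SE, its Wald score, and p-values before and after adjustment. The submitters' processing notes name Bowtie2 2.2.6, featureCounts, DESeq2 1.36.0 and the build mm9, and the gene filter, the window counted and the libraries in the fit are not given in the sources used here. The 3 input libraries were not analysed here. Per the file headers, the authors made the window files with featureCounts 2.0.3, keeping read pairs mapped with quality 30 or more. Their 18 count columns carry no names and were not used, so the planned tests of counts per library were not run. Window positions were used, and 42872 of 44308 promoter windows were given a symbol from RefSeq accessions.

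Group means and DKO villus over crypt were computed with Python 3.11.15, numpy 2.4.6, pandas 2.3.3 and scipy 1.17.1. In simulated data for DKO villus over crypt, with 200 of 6429 genes changed by 1 on the log2 scale, 85.0% were recovered and 0 unchanged genes were called with the largest SE, and 94.0% with 14 unchanged genes called under the shared-variance SE. The simulated variance of the shared WT villus group was set close to what the shared-variance SE assumes. The simulation therefore cannot show which SE suits the deposited values. The signs of the tables were checked by a non-negative fit of the difference of squared SEs on inverse group means, which explained 90.1% of the sum of squares with signs as named and at most 51.6% otherwise. Promoters were aligned with Biopython 1.88. The members and lists were chosen with earlier results of these data known. Named genes are the 9 class I genes, listed pathway genes called between WT and DKO villus, genes whose windows overlap and the 5 nearest in pattern, and other genes were named after their values were seen. Alternatives were an adjusted p under 0.01, a log2 limit of 1, a test against changes up to 0.5, centring, a minimum mean signal of 100, genes without overlaps and the other SE.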

Additional observations from a re-analysis of the deposited data

How the results depend on the processing

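The counts of class I genes called were 6 for villus over crypt, 6 for WT over DKO villus and 3 for DKO villus over crypt. Among genes without an overlap 4 class I genes remained to be tested, and 3, 3 and 2 were called, beside 39.1%, 54.6% and 17.3% of all such genes. Requiring a log2 change beyond 1 left 4, 4 and 1, where 4.43%, 8.69% and 3.47% of all genes were left. The test against changes up to 0.5 left 5, 4 and 0, where 3.92%, 9.91% and 1.40% of all genes were left. That count of 0, by the normal test on the formed difference, stood beside 1 gene with an unadjusted p under 0.05. The shared-variance SE raised the count for DKO villus over crypt from 3 to 5, among them the 3 called before, while the share of all genes called rose from 13.6% to 29.9%. An adjusted p under 0.01, centring and a mean signal of at least 100 left all 3 counts as they were. Across the single genes 120 results stayed on the same side of 0 and of the threshold, 12 lost the call and 2 gained it. None changed direction, which only centring could have altered, since the other alternatives kept the same fold changes. The stricter adjusted p, the log2 limit and the test against changes up to 0.5 could only remove calls. Results not called in the main test were therefore bound to stay the same under them. No paired analysis was possible because values per library could not be tied to replicate numbers. Leaving out a replicate, other normalisations, filters and tools on the counts were not run for the same reason. Tap1 and Tap2 had the lowest mean signals of the 8 genes, 94.6 and 87.5, with SEs from 0.13 to 0.15 that were below those of the heavy chains.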
